A study of Homo sapiens with 8 samples.

Results

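The miR-148/miR-152 family was followed on one-colour miRNA arrays of 2 HER2+ breast cancer cell lines, BT474 and SKBR3, with and without trastuzumab. Its 3 mature members on the array, hsa-miR-148a-3p, hsa-miR-148b-3p and hsa-miR-152, were taken by name from the human miRNAs measured, of which 307 were detected on at least 1 array and 1699 on none. The family was chosen by its signals and detection flags in both lines after both treatments, and by whether its response differed between the lines, so the levels and differences of the members are given as a description, with no p-value. Trastuzumab is an antibody against the receptor HER2. BT474 stands for the luminal B subtype and is labelled ER+, HER2+ and PR+. SKBR3 stands for the HER2+ subtype and is labelled ER-, HER2+ and PR+, whereas the methods of the study call it PR-. Cells of each line received 6 μg/mL trastuzumab, or PBS as the control, and total RNA was taken after 144 h from 2 biological replicates per treatment and line. The lines were grown in different media, RPMI with bovine insulin for BT474 and McCoy's 5A for SKBR3, so that line and medium cannot be told apart.

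A mature miRNA guides the RNA-induced silencing complex to transcripts that pair with its seed, the bases 2 to 8 from its 5′ end. Members of a family share this seed and are therefore predicted to bind largely the same transcripts. The miR-148/miR-152 family is known for acting on DNMT1 and DNMT3B, which encode DNA methyltransferases, and its genes are often silenced by promoter methylation in tumours. miR-148a is in addition an abundant miRNA of the lactating mammary gland and is frequently described as a tumour suppressor in breast cancer.

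The mature sequences, from RefSeq with GRCh38.p14 coordinates, are shown because all members carry one seed and differ at few other bases, which matters for telling them apart by hybridisation. The seed is in capitals.
hsa-miR-148a-3p: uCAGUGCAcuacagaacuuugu
hsa-miR-148b-3p: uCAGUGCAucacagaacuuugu
hsa-miR-152: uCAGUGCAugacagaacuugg
They are encoded at chr7:25949922-25949943 on the minus strand, chr12:54337278-54337299 on the plus strand and chr17:48037174-48037194 on the minus strand. Counted from the 5′ end, miR-148a-3p and miR-148b-3p are identical at 20 of 22 bases and differ by C9U and U10C. miR-152 differs from miR-148a-3p by C9U, U10G and U20G, and from miR-148b-3p by C10G and U20G. Among 2370 mature human entries of the RefSeq table, the seed CAGUGCA was held by these 3 alone. The MIR148B hairpin lies within COPZ1 and the MIR152 hairpin within its paralogue COPZ2, while MIR148A overlaps the uncharacterised locus LOC105375199, with NPVF and NFE2L3 as the nearest coding genes on either side.

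The series labels 8 arrays, of which 7 are distinct. The array labelled SKBR3 PBS replicate 1 is identical, value for value, to BT474 PBS replicate 1. Its ranks correlated with the other BT474 arrays at a Spearman rho of 0.933 to 0.984 and with the SKBR3 arrays at 0.740 to 0.761, and it was used once, as BT474. SKBR3 PBS therefore has 1 array, and every SKBR3 difference below rests on it. Slide row 1 held the trastuzumab arrays and row 2 those of PBS, and the effect of the row and that of the treatment cannot be told apart. Each array detected 201 to 256 miRNAs, and 173 were detected on all 7. The epithelial miR-141-3p and miR-200c-3p were detected on all 7 arrays. miR-200a-3p, miR-200b-3p, miR-429 and miR-205-5p were detected on the 4 BT474 arrays and on 0 of 3 SKBR3 arrays. Of 8 miRNAs that mark blood, endothelial, stromal or liver cells, 6 were detected on no array, miR-451a on 1 and miR-126-3p on 3, all of BT474.

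miR-148a-3p gave the clearest signal of the family, with all 30 spots well above background on every array. Its summed signal, which the feature extraction software computes per miRNA in intensity units, was 2503 and 3273 on the BT474 PBS arrays and 3380 and 4629 on the BT474 trastuzumab arrays. In SKBR3 it was 734 on the PBS array and 708 and 632 on the trastuzumab arrays. All SKBR3 arrays thus lay below all BT474 arrays, and within SKBR3 both treated arrays lay below the untreated one by a small margin. These signals carry differences between arrays as a whole: the detected miRNAs together summed to 446651 to 606660 on the BT474 arrays and to 246495 on the PBS and 284435 and 320578 on the trastuzumab arrays of SKBR3. The comparisons below therefore use values that were quantile normalised over the 7 arrays, set to at least 10 and transformed to log2.

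On that log2 scale, miR-148a-3p measured 11.40 and 11.33 after PBS and 11.33 and 11.49 after trastuzumab in BT474, with overlapping groups. In SKBR3 it measured 10.67 after PBS and 9.95 and 10.01 after trastuzumab. After this normalisation the treated SKBR3 arrays lay below the untreated one by many times their own distance from each other. In the summed signals (734 after PBS, 708 and 632 after trastuzumab) the nearer treated array lay below by less than the treated arrays differed. As a difference of trastuzumab minus PBS this came to 0.05 ± 0.09 (standard error of the limma fit, n = 2 and 2) in BT474. In SKBR3 it came to -0.69 ± 0.04 (n = 2 and 1), a level 1.62-fold lower, with the single PBS array assumed to vary like the treated ones. The response in SKBR3 minus that in BT474 was -0.74 ± 0.12.

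miR-148b-3p, which differs from miR-148a-3p directly beyond the seed, was detected on all 7 arrays as well. Its summed signal was 428 and 535 after PBS and 509 and 676 after trastuzumab in BT474, with overlapping groups. In SKBR3 it was 130 after PBS and 184 and 168 after trastuzumab, so that here both treated arrays lay above the untreated one. After normalisation the log2 values in BT474 were 8.65 and 8.70 after PBS and 8.72 and 8.73 after trastuzumab. Those in SKBR3 were 8.04 after PBS and 7.91 and 7.98 after trastuzumab, now slightly below the untreated array. The order of the treated and untreated SKBR3 arrays thus turned with the normalisation. The difference was 0.05 ± 0.06 in BT474 and -0.10 ± 0.05 in SKBR3, and the responses of the lines differed by -0.15 ± 0.08.

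**Figure D1:**
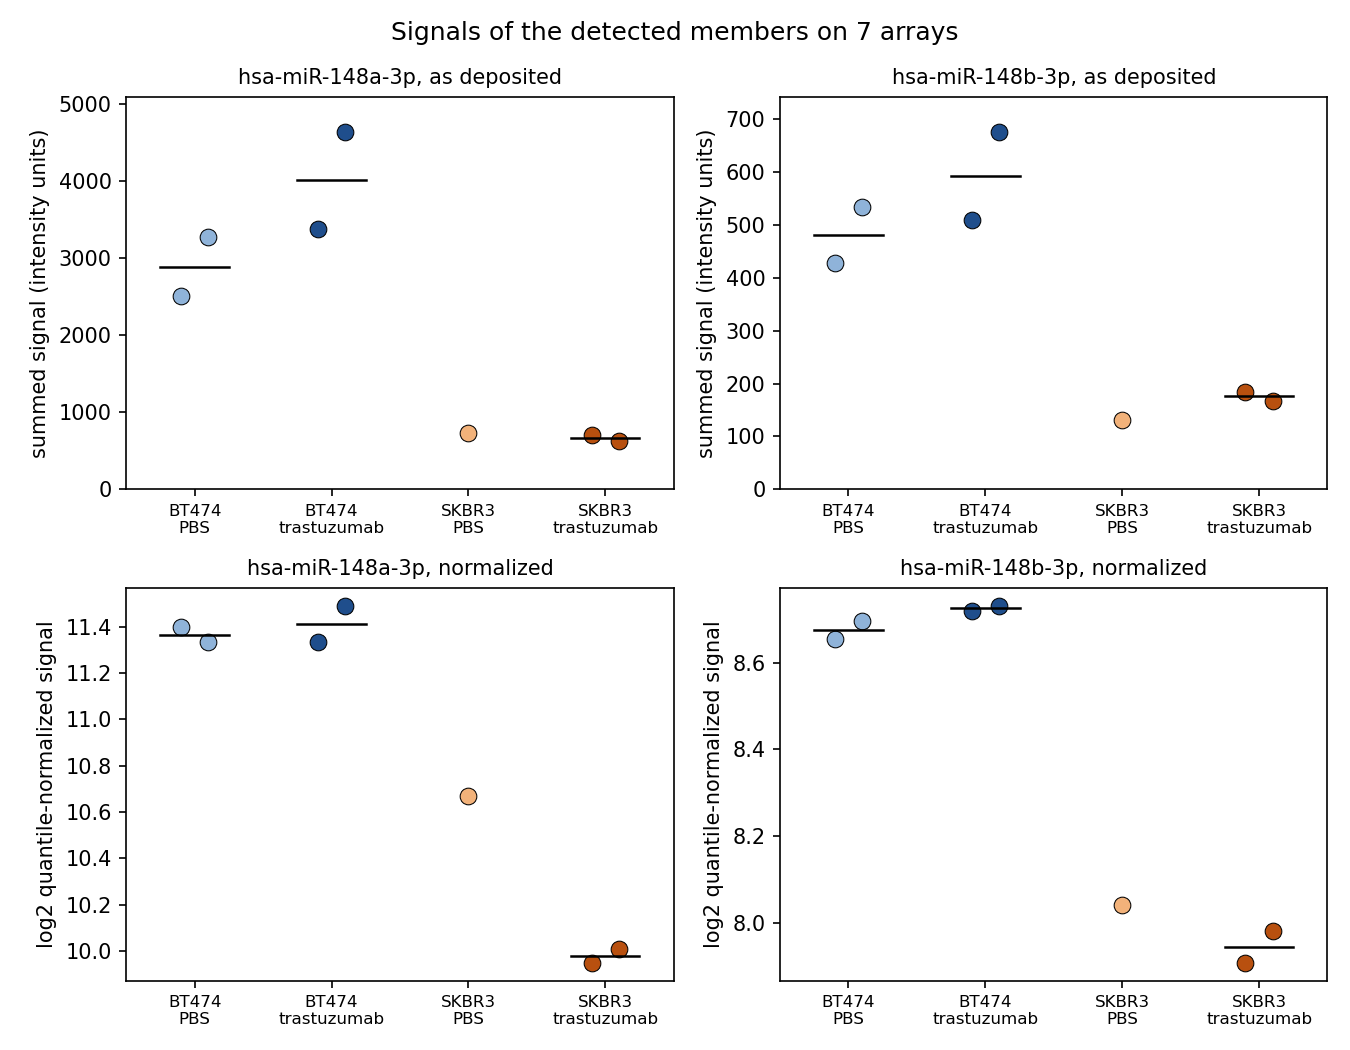
Signals of miR-148a-3p (left) and miR-148b-3p (right) on the 7 distinct arrays, as deposited in intensity units (top, axes from 0) and as log2 after quantile normalisation (bottom, axes not from 0). Points are arrays and lines are means of groups with 2 arrays; the single SKBR3 PBS array has no line. For miR-148a-3p the normalised SKBR3 trastuzumab arrays (9.95 and 10.01) sit below the PBS array (10.67), while the BT474 groups overlap.

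A responsive miRNA, as the study defines it, has a p under 0.05 before adjustment and more than a 2-fold change. Over all miRNAs tested here, 14% met this in BT474 (40 of 285) and 11.5% in SKBR3 (26 of 227). Neither detected member reached the 2-fold change in either line, where the 1.62-fold lower level of miR-148a-3p in SKBR3 was the furthest from 1.

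How far miR-148a-3p fell in SKBR3 depended on the scaling, while its place among the other miRNAs changed little. The log2 difference was -0.69 after quantile normalisation over all arrays, -0.68 after quantile normalisation within each line, -0.31 after scaling to the 75th percentile and -0.13 with no normalisation. Over the 173 miRNAs detected on every array, the median difference in SKBR3 moved too, from -0.10 and -0.11 to 0.18 and 0.36 under the same 4 scalings. Relative to this median, miR-148a-3p lay between -0.59 and -0.49, at rank 165 to 168 of 173 counted from the largest increase. No normalisation and scaling to the 75th percentile differ by 1 factor per array, so they had to give the same place (-0.49, rank 167). miR-148b-3p, whose own difference ranged from -0.10 to 0.43, lay 0.01 to 0.07 above the median. In BT474, miR-148a-3p lay 0.05 to 0.24 and miR-148b-3p 0.05 to 0.07 above the median.

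**Figure D2:**
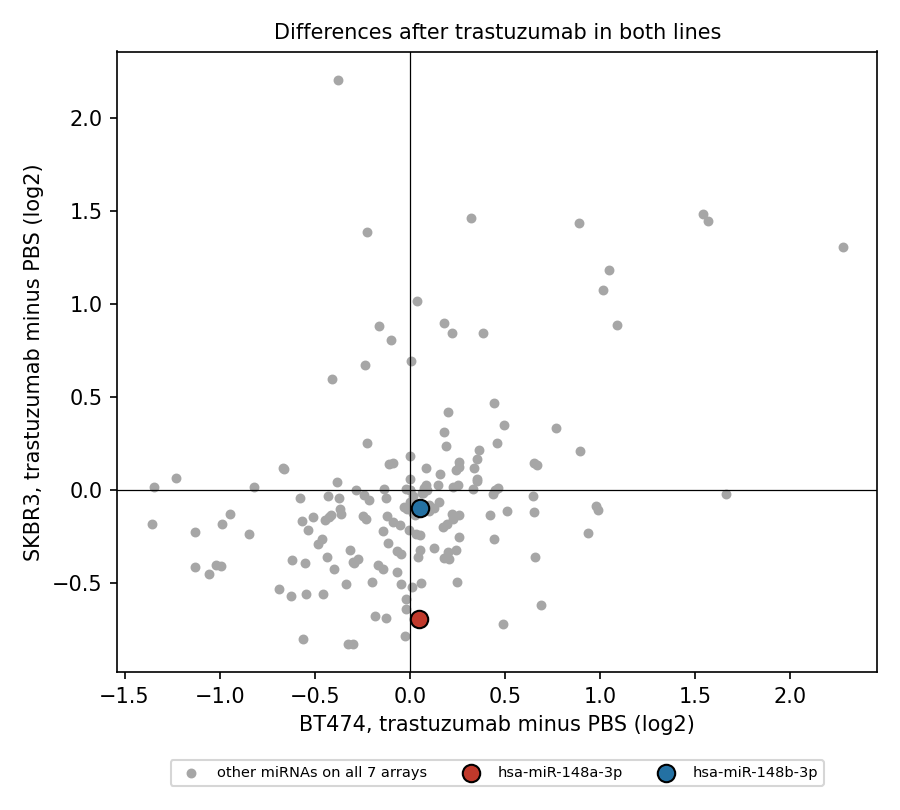
Log2 difference, trastuzumab minus PBS, in BT474 (horizontal) and in SKBR3 (vertical) after quantile normalisation, for the 173 miRNAs detected on all 7 arrays; each point is 1 miRNA. miR-148a-3p lies near 0 in BT474 (0.05) and near the lower edge in SKBR3 (-0.69), and miR-148b-3p lies near the centre (0.05 and -0.10).

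A ratio of the detected members within an array does not change when an array is scaled by 1 factor, as with the 75th percentile, though quantile normalisation can change it. The log2 ratio of miR-148a-3p to miR-148b-3p was 2.55 and 2.61 after PBS and 2.73 and 2.78 after trastuzumab in BT474. In SKBR3 it was 2.49 after PBS and 1.95 and 1.91 after trastuzumab. The SKBR3 trastuzumab arrays had the lowest ratios of the 7, and the other 5 arrays lay within a narrow range that held both lines and the SKBR3 PBS array. The ratio changed by 0.17 in BT474 and by -0.56 in SKBR3, and on quantile normalised values by -0.0042 and -0.60. The ratio describes an unequal difference of the members, which in SKBR3 rests on 1 PBS array and was not tested. It also rests on 1 probe of miR-148b-3p. The other probe, dim at 11.0 to 55.5, gave -0.34 in SKBR3 after scaling to the 75th percentile. That is near the -0.32 and -0.31 of the miR-148a-3p probes, so the unequal difference was seen by 1 probe only. As a quotient of signals from different probes, the ratio does not show which member changed, nor how many molecules of each there were.

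**Figure D3:**
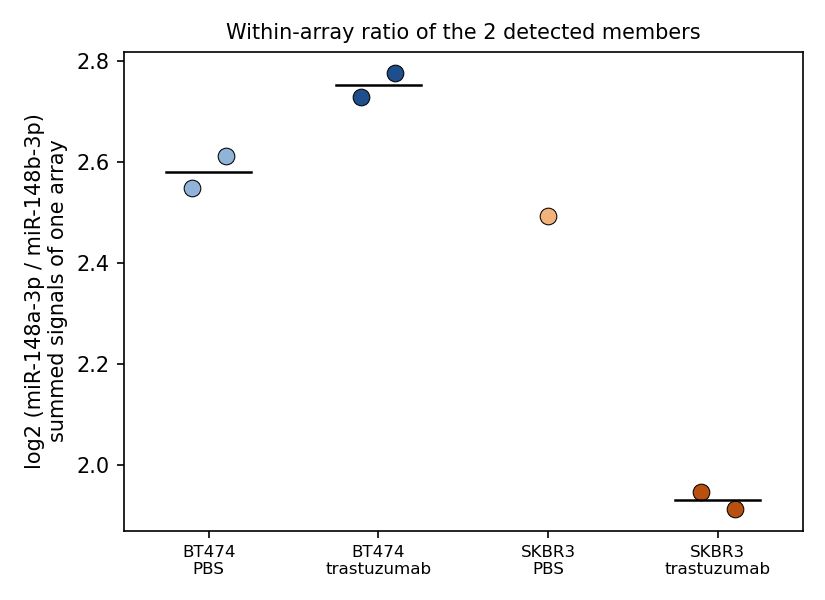
Log2 ratio of the summed signals of miR-148a-3p and miR-148b-3p on each of the 7 distinct arrays (points), with lines at the means of groups with 2 arrays; the vertical axis does not start at 0. The SKBR3 trastuzumab arrays (1.95 and 1.91) lie below the other 5, which span 2.49 to 2.78. The signal of miR-148b-3p is that of 1 probe.

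The members were not measured equally well. For miR-148a-3p both probe sequences on the array entered the summed signal, and they gave nearly the same difference in SKBR3, -0.32 and -0.31 after scaling to the 75th percentile. For miR-148b-3p only 15 or 16 of 30 spots were well above background, and on every array the summed signal was that of 1 probe alone. Its other probe read 11.0 to 55.5. The probes of miR-148b-3p disagreed on SKBR3, at 0.25 and -0.34, while they gave similar differences between the lines. In the log2 values that the authors had normalised per probe, the SKBR3 differences were -0.71 and -0.54 for the probes of miR-148a-3p and 0.05 and 0.02 for those of miR-148b-3p.

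None of the 7 arrays detected miR-152, and no change could be computed for it. Its background-subtracted spots averaged -20.0 to 18.0 per array, below the 38.2 to 67.3 of the negative control spots on the same arrays. Of its 30 spots 1 was well above background on BT474 trastuzumab replicate 1 and 0 on every other array. The lowest summed signal of any detected miRNA was 19.3 to 28.3 per array, and a level of miR-152 under that limit would not have been seen. The opposite arms of the hairpins on the array, miR-148a-5p and miR-148b-5p, were likewise detected on none.

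Both detected members were lower in SKBR3 than in BT474. The mean difference, SKBR3 minus BT474 with both treatments weighted equally, was -1.06 ± 0.06 for miR-148a-3p (2.09-fold lower) and -0.71 ± 0.04 for miR-148b-3p (1.63-fold lower), and for each the arrays of the lines did not overlap. The sizes depended on the scaling, as the lines differed in total signal. Without normalisation the differences were -2.26 and -1.81, and the median of the 173 miRNAs moved from 0.42 to -0.71. Relative to that median, miR-148a-3p lay between -1.57 and -1.48 and miR-148b-3p between -1.12 and -1.10 under the 4 scalings. The RNA came from whole cultures, where fewer cells of a type and less RNA per cell cannot be told apart.

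Over the 7 arrays, the normalised log2 values of miR-148a-3p followed most closely those of miR-331-3p (Pearson r = 0.988), miR-128 (0.981) and miR-125b-5p (0.976), among 170 other miRNAs detected on every array. Those of miR-148b-3p followed miR-181b-5p, miR-365a-3p and miR-103a-3p, each with r of 0.996 or 0.997. The members correlated with each other at 0.960. The 7 points fall into 2 groups by line, and 26 and 32 of the 170 candidates had r above 0.9 with miR-148a-3p and miR-148b-3p. All 6 named miRNAs were lower in SKBR3, with log2 differences of -1.80 to -0.72. In SKBR3 after trastuzumab, the companions of miR-148a-3p measured -0.33 ± 0.03 (miR-331-3p), -0.68 ± 0.08 (miR-128) and -0.37 ± 0.05 (miR-125b-5p), and those of miR-148b-3p -0.19 to -0.02.

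The family seed reappears, moved by 1 base, in the miR-130/miR-301/miR-454 family, whose seed AGUGCAA shares 6 bases with it. Some target sites can pair with both, so these miRNAs were compared as the nearest group by sequence. The shared bases AGUGCA stand at positions 3 to 8 of the miR-148/miR-152 members and at positions 2 to 7 of these miRNAs, whose mature sequences are shown with the seed in capitals.
hsa-miR-130b-3p: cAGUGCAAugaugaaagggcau
hsa-miR-301a-3p: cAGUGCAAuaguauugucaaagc
hsa-miR-301b: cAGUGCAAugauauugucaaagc
hsa-miR-454-3p: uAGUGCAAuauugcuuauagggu
hsa-miR-130a-3p also belongs to this group. The RefSeq table gives the same seed for miR-3666 and miR-4295, which were not in the list and were detected on 0 of the 7 arrays. Of the 5 miRNAs of the list 4 were detected, and miR-301b was detected on no array. Its mature sequence at chr22:21653025-21653047 lies close to that of miR-130b-3p at chr22:21653354-21653375, which was detected on all 7.

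In BT474, miR-130a-3p was the only one of 4 tested to be called after trastuzumab. Its summed signal was 65.1 and 84.5 after PBS and 193 and 273 after trastuzumab, with no overlap. This was a rise of 1.66 ± 0.17 on the log2 scale (3.16-fold, limma adjusted p = 0.0327), where 7.02% of all miRNAs tested were called higher. The call did not hold after normexp correction of the spots (0.41) or in the authors' normalised values (0.73). miR-130b-3p, miR-301a-3p and miR-454-3p measured -0.13, 0.01 and 0.20 and were not called. The list median was 0.11, beside 0.00 over all miRNAs tested.

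In SKBR3, 0 of the 3 tested miRNAs of the shifted seed were called. miR-130b-3p measured -0.69 ± 0.03 (limma adjusted p = 0.0848, 1.61-fold lower), a difference of the same size as that of miR-148a-3p and short of the fold threshold. Its summed signals were 455 after PBS and 413 and 453 after trastuzumab, so that PBS lay above both, but above the nearer one by less than the treated arrays differed. miR-301a-3p measured -0.52 ± 0.19 and miR-130a-3p -0.02 ± 0.04. The list median was -0.52, beside -0.09 over all miRNAs tested. The responses of the lines differed, lower in SKBR3, for 2 of 4, beside 9.84% called lower over all 305 miRNAs tested, namely for miR-130a-3p (-1.68 ± 0.23, adjusted p = 0.0222 by limma) and for miR-130b-3p (-0.56 ± 0.06, adjusted p = 0.0153 by limma). For miR-130b-3p the direction turned after scaling to the 75th percentile (0.12). With the direction kept, the call of miR-130a-3p was lost under 9 of 18 alternatives and that of miR-130b-3p under 5. Under 1 and 2 more the direction turned, with no call. The 9 alternatives that lost the call of miR-130a-3p include leaving out BT474 PBS replicate 1 (-1.60) and SKBR3 trastuzumab replicate 1 (-1.70) or 2 (-1.57).

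Between the lines the miRNAs of the shifted seed went in both directions and further than the miR-148/miR-152 members. miR-130a-3p was 36.7-fold higher in SKBR3, with summed signals of 1818 to 2293 against 65.1 to 273 in BT474 (limma adjusted p = 2.55e-05). miR-130b-3p was 2.53-fold higher (limma adjusted p = 3.18e-05), a log2 difference of 1.34 that came to 0.12 without normalisation, 0.22 with quantiles within each line and 0.34 in the authors' values, with the call lost under the first and the last. miR-301a-3p was 43.0-fold lower, with 50.6 to 72.7 in SKBR3 against 4875 to 7130 in BT474 (limma adjusted p = 1.60e-05). miR-454-3p was detected on all BT474 arrays, at 669 to 1044, and on no SKBR3 array, and was at least 10.5-fold lower in SKBR3. It was called lower, but all its SKBR3 values stand at the floor, without spread. The fitted log2 difference is set by that floor (-6.00 with a floor of 10, -9.32 with 1 and -4.41 with 30). miR-301a-3p and miR-454-3p, which were both low or undetected in SKBR3, are encoded near each other, at chr17:59151149-59151171 and chr17:59137787-59137809. The higher and the lower miRNAs of this list were thus 2 and 2 of 4, beside 35.1% called higher and 33.4% called lower over all miRNAs tested. The list median was -2.04, beside 0.00 over all miRNAs tested. It is the midpoint of 1.34 (miR-130b-3p) and -5.43 (miR-301a-3p), with no miRNA of the list near it.

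**Figure D4:**
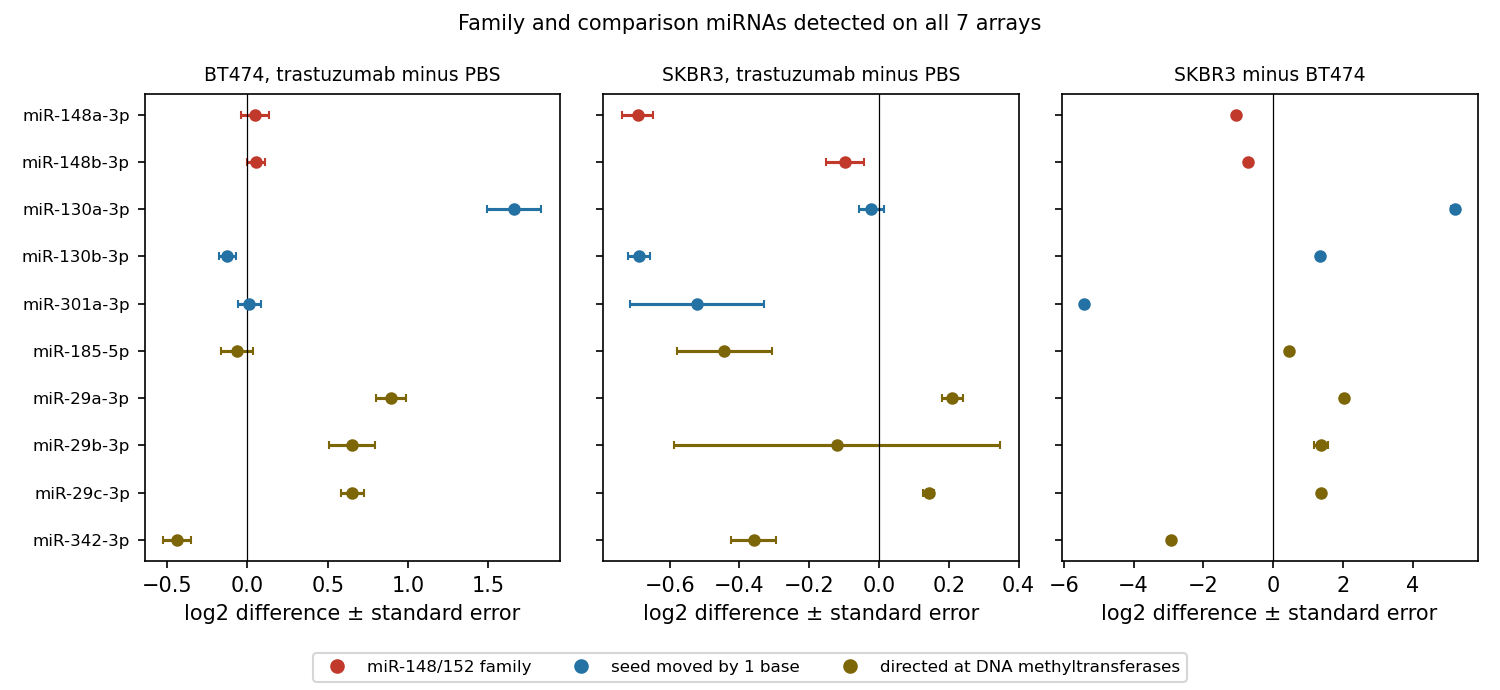
Log2 difference with its standard error (horizontal axes, scales differ between panels) for the miRNAs of the 3 lists that were detected on all 7 arrays, after trastuzumab in BT474 (left), after trastuzumab in SKBR3 (middle) and for SKBR3 minus BT474 (right, bars mostly smaller than the points). miR-148a-3p and miR-130b-3p both lie at -0.69 in SKBR3, and miR-130a-3p stands out in BT474 at 1.66.

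DNA methyltransferase transcripts are also known targets of other miRNAs, among them the miR-29 family, which acts on DNMT3A and DNMT3B. Of 10 such miRNAs fixed as a list, 8 were detected, and miR-143-3p and miR-145-5p were detected on no array. After trastuzumab 0 of 8 tested were called in BT474 and 0 of 7 in SKBR3. The list median was 0.77 in BT474, beside 0.00 over all miRNAs tested, and 0.14 in SKBR3, beside -0.09. The BT474 values include miR-126-3p (0.92 ± 0.80) and miR-140-5p, detected on 1 and 0 of the 2 PBS arrays, whose sizes depend on the floor. They also include the 3 members of the miR-29 family, while miR-185-5p (-0.07) and miR-342-3p (-0.44) were lower. Within BT474 all 3 miR-29 miRNAs lay higher on both trastuzumab arrays than on both PBS arrays, below the fold threshold after quantile normalisation. miR-29a-3p had summed signals of 1116 and 1434 after PBS and 2614 and 3680 after trastuzumab, a difference of 0.89 ± 0.09 (limma adjusted p = 0.0327). miR-29c-3p measured 0.65 ± 0.07 (limma adjusted p = 0.0362) and miR-29b-3p 0.65 ± 0.14 (limma adjusted p = 0.0864). The miR-148/miR-152 members measured 0.05 in the same cells. miR-140-5p was detected on both trastuzumab arrays of BT474, at 52.6 and 55.8, and on neither PBS array, which places it at least 1.53-fold higher. Its fitted log2 difference, with PBS at the floor, was 1.12 ± 0.60 (limma adjusted p = 0.326). miR-101-3p, at 119 and 253 after PBS and 435 and 584 after trastuzumab, measured 1.33 ± 0.45 (limma adjusted p = 0.159). miR-342-3p measured -0.44 ± 0.09 in BT474 and -0.36 ± 0.06 in SKBR3, and neither was called.

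The response of miR-29a-3p and miR-29c-3p differed between the lines, by -0.68 ± 0.12 and -0.51 ± 0.09 (adjusted p = 0.0410 for both, limma), since they measured 0.21 and 0.14 in SKBR3. These were 2 of 8 tested, beside 9.84% called lower over all miRNAs tested. With the direction kept, the calls were lost under 10 and 11 of 18 alternatives, and under 1 and 2 more the direction turned, with no call. Both calls were lost without normalisation, and on leaving out either BT474 PBS array or either SKBR3 trastuzumab array (-0.73 to -0.64 and -0.52 to -0.50). At the 75th percentile the call of miR-29a-3p was lost and the direction of miR-29c-3p turned (0.076). Between the lines, 4 of 8 miRNAs of this list were called higher and 2 lower in SKBR3. Over all miRNAs tested, 35.1% were called higher and 33.4% lower. The miR-29 miRNAs were 2.56-fold (miR-29c-3p) to 4.11-fold (miR-29a-3p) higher, while the miR-148/miR-152 members were lower. These sizes depended on the scaling. Without normalisation miR-29a-3p, miR-29b-3p and miR-29c-3p measured 0.88, 0.28 and 0.26, and the calls of the last 2 were lost. Quantiles within each line gave 0.99, 0.36 and 0.24, with miR-29b-3p not called, and the authors' values 1.14, 0.52 and 0.55, with miR-29b-3p and miR-29c-3p not called. miR-342-3p was 7.67-fold lower (limma adjusted p = 2.26e-05), with summed signals of 129 to 162 in SKBR3 against 1965 to 2516 in BT474. miR-101-3p was detected on all BT474 arrays and on 1 of 3 SKBR3 arrays, at 63.5, and was called lower there (limma adjusted p = 0.0269). The size is set by the floor (-6.23 with a floor of 1 and -2.55 with a floor of 30), and the call was lost under 8 alternatives, also without each of the 4 BT474 arrays. miR-185-5p measured 0.45 ± 0.09 (limma adjusted p = 0.0132), with a direction that turned without normalisation (-0.70).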

How the data were processed

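Total RNA was labelled with Cy3 and hybridised to Agilent arrays of human miRNAs. The authors deposited intensities from Feature Extraction 11.5.1.1 that were not normalised between arrays: spot medians and local backgrounds, background-subtracted spots, and per miRNA a flag for detection and a summed signal (0.1 where not detected). They also deposited log2 values per probe, quantile normalised with BRB Array Tools, which served as an alternative.

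Summed signals of the 7 distinct arrays were quantile normalised, values under 10 set to 10, and log2 taken. limma 3.58.1 in R 4.3.3 (lmFit, eBayes) compared the treatments within each line. Interaction and line differences were fitted to all 7 arrays, with Benjamini-Hochberg adjustment over all miRNAs tested (those above the floor on at least 1 array). Scripts were tested on simulated arrays, where no share of changes recovered was required for the SKBR3 and interaction comparisons. Tables and plots used Python 3.11.15, pandas 2.3.3 and matplotlib 3.10.9. A miRNA undetected in 1 group is given a limit, against each array's lowest detected signal. Array number limits the precision.

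The members and lists were chosen with earlier results of these data known. Named miRNAs were the members, their opposite arms, the miRNAs of the shifted seed, those directed at DNA methyltransferases, the 3 most alike to each member by Pearson r, and cell type markers. Alternatives were the scaling, floor, filter, background correction, authors' values, shared array, leaving out each array, replicate block, test and threshold.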

Additional observations from a re-analysis of the deposited data

Results flagged for a closer look

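miR-148b-3p is listed because its normalised values moved in opposite directions in the lines, higher on both trastuzumab arrays than on both PBS arrays in BT474 and lower on both than on the PBS array in SKBR3. The responses differed by -0.15 on the log2 scale, and no test of this difference is given. The pattern turned after scaling to the 75th percentile, with -0.16 in BT474 and 0.25 in SKBR3, and without normalisation both were higher after trastuzumab (0.29 and 0.43).

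For 4 miRNAs of the comparison lists, the interaction term of the limma fit found a response that differed between the lines, on the log2 scale and lower in SKBR3: -1.68 for miR-130a-3p, -0.56 for miR-130b-3p, -0.68 for miR-29a-3p and -0.51 for miR-29c-3p. All of them rest on the single distinct SKBR3 PBS array, and of 18 alternatives the call was lost without a turn of direction in 9, 5, 10 and 11. The same difference was -0.74 ± 0.12 for miR-148a-3p, within the range of these 4, and -0.15 ± 0.08 for miR-148b-3p. It was not tested for the members, so these 4 are not shown to differ from miR-148a-3p.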

How the results depend on the processing

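The difference of miR-148a-3p in SKBR3 kept its sign under 16 of 16 alternatives (-1.04 to -0.13), its interaction under 18 of 18 (-1.10 to -0.33) and its line difference under 18 of 18 (-2.26 to -0.87). The line difference of miR-148b-3p kept its sign under 18 of 18 (-1.81 to -0.35), its difference in SKBR3 under 13 of 16 (-0.40 to 0.43) and its interaction under 16 of 18 (-0.45 to 0.41). In BT474 they ranged from -0.03 to 0.47 and -0.16 to 0.29. Several alternatives could not move these values of the members. The floors, filters and tests left them unchanged, and leaving out the shared array repeats leaving out BT474 PBS replicate 1. For both members the lowest SKBR3 and interaction values came from keeping the shared array under both labels. Numbers of miRNAs called, 40 in BT474, 26 in SKBR3, 49 for the interaction and 209 between the lines, depended on the setting. Without normalisation the interaction called 25. A floor of 30 called 26 in BT474. Without a filter on dim miRNAs the interaction called 8 and the line comparison 134. With only miRNAs detected on every array the counts were 20 in BT474, 11 in SKBR3 and 23 for the interaction. With normexp correction they were 3 in BT474, 9 in SKBR3 and 374 between the lines. The authors' log2 values gave 85 in BT474, 119 in SKBR3 and, for the interaction, 0 by limma (175 at an unadjusted p under 0.05). At an adjusted p under 0.05 with a fold above 2, 24 and 14 were called in BT474 and SKBR3. With the shared array kept under both labels, 14 were called in SKBR3, 5 for the interaction and 6 between the lines. Leaving out 1 array gave 34 to 44 in BT474, 29 to 74 for the interaction (74 without BT474 trastuzumab replicate 2, 29 without SKBR3 trastuzumab replicate 1) and 187 to 206 between the lines. In SKBR3, leaving out an array left no test. The cause of these changes was not tested.

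Calls split as 20 higher and 20 lower in BT474, 18 and 8 in SKBR3, 19 and 30 for the interaction and 107 and 102 between the lines. Scaling to the 75th percentile gave 13 and 28, 31 and 8, 35 and 16, and 93 and 124. No normalisation gave 26 and 13, 31 and 6, 14 and 11, and 21 and 165, and quantiles within each line gave 30 and 167 between the lines. Over 766 alternative values of single miRNAs of the comparison lists, 610 kept direction and side of the threshold or had no difference left, 65 lost the call, 19 gained one and 72 changed sign, 9 of them called as reported and 63 not called.

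Of the called values, the interaction of miR-130b-3p (0.12) and miR-29c-3p (0.076) turned at the 75th percentile, the line difference of miR-185-5p turned without normalisation (-0.70), with quantiles within each line (-0.60) and in the authors' values (-0.46), and with the shared array under both labels the interaction turned for miR-130a-3p (1.42), miR-130b-3p (0.26), miR-29a-3p (0.53) and miR-29c-3p (0.29).

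The values that were not called turned as follows. At the 75th percentile they were miR-301a-3p (-0.32) and miR-454-3p (-0.069) in BT474, miR-130a-3p (0.11) and miR-342-3p (0.066) in SKBR3, miR-301a-3p (0.31), miR-454-3p (0.069), miR-140-5p (-0.42) and miR-185-5p (0.13) for the interaction and miR-140-5p (-0.21) between the lines. Without normalisation they were miR-130b-3p (0.080) and miR-185-5p (0.18) in BT474, miR-130a-3p (0.28), miR-301a-3p (0.17), miR-29b-3p (0.14), miR-185-5p (0.043) and miR-342-3p (0.24) in SKBR3, miR-301a-3p (0.038), miR-101-3p (-0.21) and miR-140-5p (-1.16) for the interaction and miR-140-5p (-0.58) between the lines. With quantiles within each line they were miR-101-3p (-0.23) and miR-140-5p (-1.44) for the interaction and miR-140-5p (-0.72) between the lines. A floor of 1 turned miR-140-5p (-1.49 for the interaction, -0.75 between the lines) and a floor of 30 miR-101-3p (-0.61 for the interaction). With normexp they were miR-301a-3p (-0.15) in BT474, miR-29a-3p (-0.025), miR-101-3p (-0.21) and miR-140-5p (-0.056) in SKBR3, and miR-454-3p (0.034), miR-101-3p (-0.90) and miR-140-5p (-0.21) for the interaction. In the authors' values they were miR-301a-3p (-0.079) and miR-185-5p (0.076) in BT474, miR-101-3p (-0.090) and miR-342-3p (0.16) in SKBR3, and miR-454-3p (0.28), miR-101-3p (-1.28), miR-126-3p (0.42) and miR-140-5p (-0.11) for the interaction. With the shared array under both labels they were miR-130a-3p (3.04), miR-130b-3p (0.14), miR-29b-3p (0.81) and miR-101-3p (-0.13) in SKBR3, and miR-29b-3p (0.18), miR-101-3p (-1.45) and miR-342-3p (-1.40) for the interaction. Without the shared array they were miR-301a-3p (-0.055) and miR-126-3p (-0.022) in BT474 and miR-126-3p (0.022) for the interaction. Leaving out 1 array gave ranges that cross 0 in BT474 for miR-301a-3p (-0.055 to 0.085), miR-126-3p (-0.022 to 1.66) and miR-185-5p (-0.17 to 0.028), for the interaction of miR-101-3p (-1.33 to 1.80), miR-126-3p (-1.66 to 0.022) and miR-140-5p (-1.34 to 1.46) and between the lines for miR-140-5p (-0.67 to 0.73). With the replicate block the interaction of miR-101-3p (-1.33) and miR-140-5p (-1.12) turned.

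The replicate numbers are shared by the labels alone. Deviations of same-numbered BT474 arrays correlated at 0.297 over 173 miRNAs, with 2 pairs. With the replicate block, 32 were called in BT474, 11 for the interaction and 175 between the lines, and SKBR3 had no degrees of freedom left.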
